A study of Bos taurus with 8 samples.

Results

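The tables of rumen fluid miRNAs held 109 detected entries that carry the name of a human miRNA (prefix hsa-), beside 268 detected bovine entries (prefix bta-). An entry was taken as detected when it had at least 10 reads in at least 1 of the 8 libraries, and 109 of the 166 human entries listed reached this minimum. The human entries were then split by their reads. In 88 of them the read count equalled that of a bovine entry in all 8 libraries, and in 21 it did not. The members were thus chosen by their read counts, and their detection and the equality of reads are given as descriptions, without a test.

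The 8 libraries came from rumen fluid of 4 dry Holstein cows with a rumen cannula. Each cow gave 1 library on a forage diet without concentrate (0% concentrate, sampled on day 7) and 1 on a high-grain (HG) diet. The HG library was taken on the first day with 65% concentrate, after a step-wise transition of 1 week. Both were taken 4 h after the morning feeding. Forage came first in every cow, so diet and time of sampling cannot be told apart. Same-numbered libraries of the diets were taken as 1 cow, although the labels give numbers and no cow names. The bovine genome was the only genome to which the reads were mapped, and the human entries of miRBase were projected on it beside the bovine entries. A human name therefore says which miRBase entry the reads were assigned to. The species from which the reads came was not tested.

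A miRNA gene is transcribed as a longer RNA that folds into a hairpin, from which Drosha and Dicer cut a short duplex. The strand from the left side of the hairpin is called the 5p arm and that from the right side the 3p arm. One of them, the guide strand, is usually loaded into an Argonaute protein and kept, while the other, the passenger strand, is usually degraded, although at some hairpins both are kept. Mature miRNAs are so conserved among mammals that a human and a bovine entry often describe the same molecule, and a catalogue of one species may list an arm that the other lacks. The sequences themselves were not analysed here, and positions refer to the bovine build UMD3.1 as the tables give them.

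The libraries held 300116 to 522804 miRNA reads each, and one of them stood apart. In HG replicate 2 the human entries took 30.5% of the summed read counts of detected entries, against 33.7% to 34.0% in the other 7 libraries. The bovine entries of the erythrocyte list (miR-451, miR-144 and miR-486) summed to 149756 RPM (reads per 1000000 miRNA reads of a library) in HG replicate 2 and to 198457 to 206066 in the others. The stroma and smooth muscle list reached 90744 RPM there against 65569 to 70580 elsewhere, and the epithelium list, of which miR-203 was not detected, 27955 against 20407 to 21317. The remaining 5 lists also lay outside the range of the other 7 libraries. Endothelium was higher (7672 RPM against 4913 to 5486). Leukocytes (18655 against 22587 to 23323), striated muscle, nervous tissue and liver were lower. Of the striated muscle list miR-133b, miR-206, miR-208a and miR-208b were not detected, and the liver and endothelium lists hold 1 miRNA each. The part of these lists in the results was not tested. Fold changes that HG replicate 2 moved are given with and without it. RPM are shares of the miRNA reads. In rumen fluid, fewer cells of a type, less RNA per cell and a rise of other miRNAs cannot be told apart.

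Most of the human entries repeated a bovine entry under another name. The 88 entries of equal reads also had the same number of distinct read sequences as their bovine counterpart in each library, in 88 of 88 cases. In 77 of them the names differed by the arm suffix only, such as hsa-miR-26a-5p and bta-miR-26a. In the other 11 the name itself differed. These included hsa-miR-451a and bta-miR-451, hsa-miR-16-5p and bta-miR-16b, hsa-miR-378a-3p and bta-miR-378, hsa-miR-365a-3p and bta-miR-365-3p, hsa-miR-147b-3p and bta-miR-147, and hsa-miR-124-3p, whose reads equalled those of both bta-miR-124a and bta-miR-124b. The remaining 5 of the 11 were hsa-miR-6529-5p with bta-miR-6529a, hsa-miR-411-5p with bta-miR-411a, hsa-miR-323a-3p with bta-miR-323, hsa-miR-24-1-5p with bta-miR-24, and hsa-miR-29c-5p with bta-miR-29d-5p.

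The annotated positions of these pairs were close but not always identical. In 49 of the 88 pairs the human and the bovine entry had the same start and end, in 38 they overlapped, and in 1, hsa-miR-29c-5p, they did not overlap. The human annotation was shorter in 20 of the 87 overlapping or identical pairs, longer in 12 and of equal length in 55, of which 6 were shifted. The lengths differed by at most 2 nt. The largest shift of the start was 18 nt, at hsa-miR-320a-3p. Equal reads thus did not require equal annotated ends, and in the deposited tables a read was counted in full at every entry it mapped to. In the second count of the tables, which divides each read among its entries, the human entry held 50% of its reads in 45 of the 88 cases and up to 0.5 percentage points less in a further 12, and the lowest share was 16.7%.

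Of the 10 human entries with most reads, 9 were of this kind, the exception being hsa-miR-103a-3p with 36470 reads. Hsa-miR-451a, the erythrocyte miRNA that Argonaute 2 cuts without Dicer, had 532591 reads over the 8 libraries (42440 to 90612 per library). It was followed by hsa-miR-26a-5p with 154536 reads, hsa-let-7f-5p with 108015, hsa-miR-486-5p with 91159 and hsa-miR-16-5p with 81803. Hsa-let-7g-5p had 75286 reads, hsa-miR-92a-3p 74618, hsa-miR-25-3p 65632, hsa-let-7i-5p 34918 and hsa-miR-26b-5p 33196. These 10 most abundant of the 88 held 78.7% of the 1591153 reads of the 88, whose median was 1549.5 reads. Several of them belong to families known for general roles, the let-7 family in differentiation and miR-16, miR-25 and miR-92a in growth, while miR-486 is enriched in erythroid cells.

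The 21 entries without a bovine entry of the same reads held 46269 reads, which was 1.44% ± 0.0262 (SD, n = 4) of the miRNA reads on forage and 1.43% ± 0.0671 (n = 4) on HG. These shares count in full the reads that bovine entries hold as well. With reads divided among entries they were 0.574% ± 0.0109 on forage and 0.568% ± 0.0264 on HG, and the 18 members that share no reads held 0.176% ± 0.00861 and 0.173% ± 0.00844. One entry dominated the 21. Hsa-miR-103a-3p alone had 36470 of these reads (78.8%), and the other 20 together had 9799. In 10 of the 21 the total over 8 libraries stayed under 100 reads. Reads were present in all 8 libraries for 18 of the 21 and for 85 of the 88. Of the 21, 15 were named for the 3p arm and 6 for the 5p arm, against 36 and 50 of the 88.

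By their place in the tables the 21 fell into 3 kinds. A first 3 shared reads with a bovine entry. After division of the reads among entries these 3 kept 20.02% to 34.99% of their counts. A further 15 lay on the opposite arm of a hairpin whose other arm had a bovine entry. The last 3 had no detected bovine entry within 100 nt. After division of the reads among entries, the 18 members of the last 2 kinds kept 100% of their reads, so none of their reads was also counted at another entry. The 21 hairpins all had a miRNA gene in the RefSeq annotation of the cow, matched by name.

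**Figure D1:**
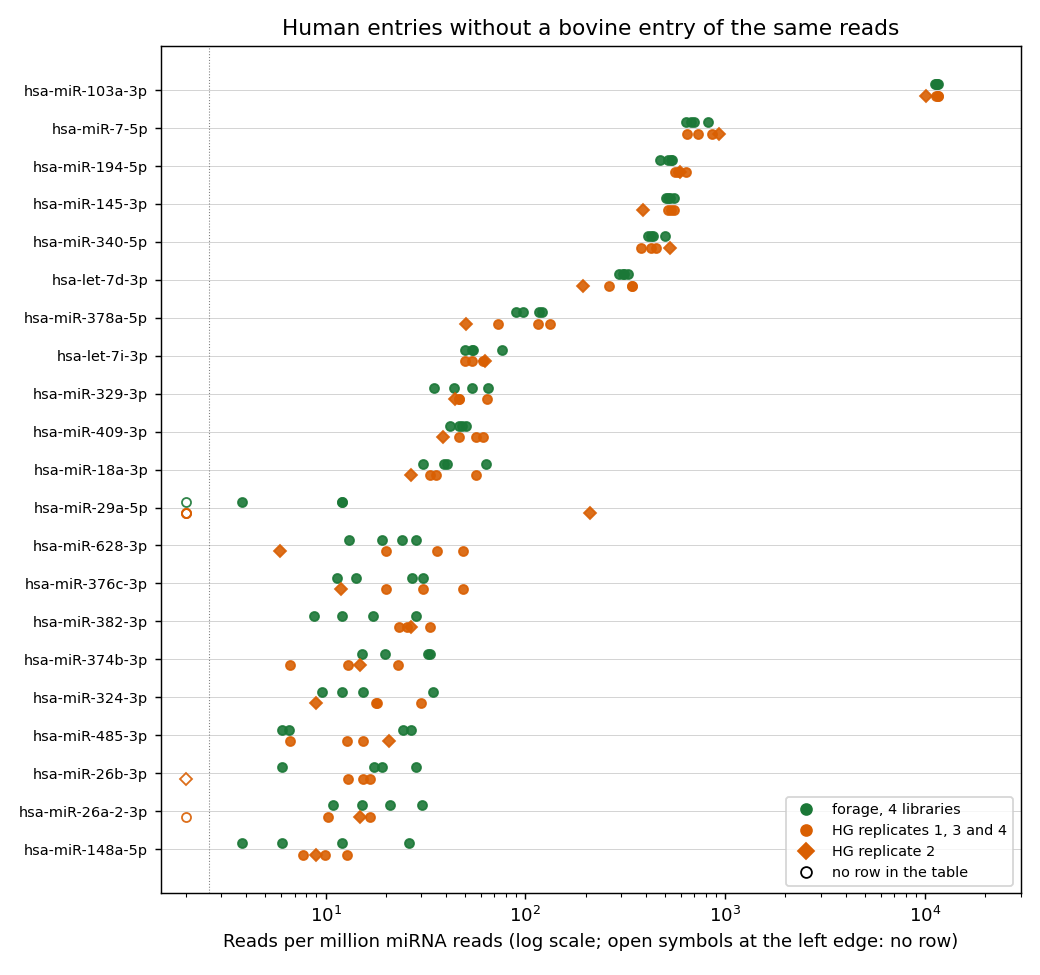
Level of each of the 21 human entries without a bovine entry of the same reads, in RPM of miRNA reads on a log axis, with 1 symbol per library. The members span from the level of a few reads to 11648 RPM, forage and HG symbols overlap except at hsa-miR-194-5p, and HG replicate 2 (diamond) lies far from the rest at hsa-miR-29a-5p.

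Among the members that shared reads, hsa-miR-103a-3p differed from bta-miR-103 by only 3 of 36473 reads. The miR-103 genes lie in introns of pantothenate kinase genes, and the hairpin at chromosome 13 (51742467 to 51742489, minus strand) lies within PANK2. Its reads were 5756, 5989, 5184 and 3737 in forage replicates 1 to 4 and 3482, 3395, 4543 and 4384 in HG replicates 1 to 4. In 6 of the 8 libraries the bovine entry had the same count, in HG replicate 1 it had 1 read more and in HG replicate 3 it had 2 more. The human annotation started 2 nt from the bovine one. The levels were nearly flat, between 11261 and 11648 RPM on forage and 11296 and 11626 in 3 HG libraries, with 10100 RPM in HG replicate 2 as the lowest.

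Hsa-miR-7-5p, the counterpart of a miRNA best known from neurons and endocrine cells, had 404, 334, 317 and 224 reads on forage and 193, 313, 286 and 334 on HG. Bta-miR-7 had 3 to 8 reads more in each library, so the human entry held 97.5% to 99.1% of the bovine count. The human entry was listed on chromosomes 21 and 7 and the bovine entry on chromosome 8. After division of the reads among entries the human entry kept 20.02% of its count. HG replicate 2 was the highest library, with 931 RPM, and the diets overlapped.

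Hsa-miR-194-5p showed the widest gap of the 3. The miR-194 hairpins lie beside those of miR-192 and miR-215, and the family is known from intestinal epithelium and liver. The human entry lay on chromosome 16 (24306044 to 24306065, minus strand) within IARS2, next to MIR215, whereas bta-miR-194 was placed on chromosome 29. The human entry had 263, 283, 236 and 157 reads on forage and 174, 200, 220 and 248 on HG. The bovine entry had 399, 507, 397 and 265 reads on forage and 279, 288, 358 and 367 on HG. The human entry thus held 55.8% to 69.4% of the bovine count, lowest in forage replicate 2 and highest in HG replicate 2. After division 34.99% of its reads remained with it, and 62.6% of those of bta-miR-194 remained with the bovine entry.

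**Figure D2:**
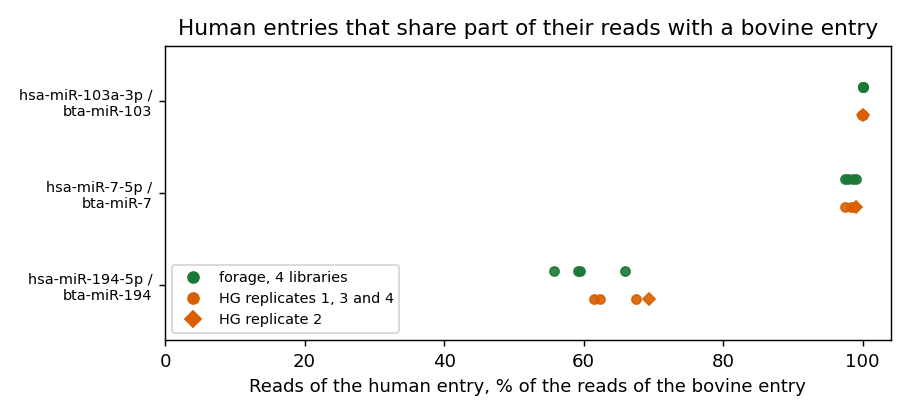
Reads of hsa-miR-103a-3p, hsa-miR-7-5p and hsa-miR-194-5p as a percentage of the reads of the bovine entry that shares them, with 1 symbol per library. The first lies at 100.0% or just below it, the second between 97.5% and 99.1%, and the third between 55.8% and 69.4%.

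The 15 members on the opposite arm started 30 to 56 nt from the bovine entry of the same hairpin. At 5 hairpins the arm that carried only a human name had more reads than the arm with the bovine name, and at 10 it had fewer. Shares are given below over the 8 libraries together, as the reads of the human-named arm among the reads of both arms, with Wilson 95% intervals that cover counting error only.

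The clearest case of a human-named arm above the bovine one was hsa-miR-340-5p, at chromosome 7 (1147003 to 1147024, plus strand) within RNF130. It had 203, 222, 199 and 166 reads on forage and 135, 178, 167 and 147 on HG, against 34, 28, 28 and 19 and then 19, 18, 24 and 24 for bta-miR-340. Its share of both arms was 88.0% (86.3% to 89.5%), and it ranged only from 85.7% to 90.8% among libraries. The 5p arm was thus ahead in every library, by 7.30 reads to 1 overall.

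At hsa-miR-409-3p, on chromosome 21 (67603292 to 67603313, plus strand), the bovine-named arm was almost absent. This hairpin belongs to the miRNA cluster of the imprinted DLK1-DIO3 region, which is expressed from the maternal chromosome. The 3p arm had 23, 22, 23 and 16 reads on forage and 14, 13, 24 and 22 on HG. Bta-miR-409a had 0, 2, 4 and 2 reads on forage and no listed reads in any HG library. The share of the 3p arm was 95.2% (90.7% to 97.5%).

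The other 3 hairpins of this kind had few reads. Hsa-miR-324-3p, within ACADVL, had 59 reads against 15 (79.7%, 69.2% to 87.3%). Hsa-miR-485-3p, also of the DLK1-DIO3 cluster, had 51 against 19 (72.9%, 61.5% to 81.9%). At hsa-miR-628-3p, within CCPG1, the 79 reads against 64 gave 55.2% with an interval of 47.1% to 63.2%, so that neither arm was ahead beyond counting error. Of the 5 hairpins with a human-named arm ahead, the interval lay above 50% at 4.

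The opposite order held at the other 10 hairpins, among them those of abundant miRNAs. Hsa-miR-145-3p, the 3p arm of the smooth muscle miRNA miR-145, lay on chromosome 7 (62810786 to 62810807, plus strand) next to MIR143. It had 260, 264, 236 and 183 reads on forage and 155, 131, 208 and 216 on HG, while bta-miR-145 had 836, 859, 795 and 491 and then 493, 1023, 615 and 608. The share of the 3p arm was 22.4% (21.5% to 23.4%) overall. It was 22.9% to 27.2% in 7 libraries and 11.4% in HG replicate 2, where the bovine arm was at its highest and the 3p arm at its lowest count.

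Hsa-let-7d-3p, on chromosome 8 (86887492 to 86887513, plus strand) opposite the let-7 guide, had 161, 153, 142 and 102 reads on forage and 103, 65, 134 and 102 on HG. With 7982 reads on bta-let-7d, the 3p share was 10.8% (10.1% to 11.4%). The forage libraries lay between 10.8% and 11.3%, and the HG libraries ranged from 7.15% in replicate 2 to 13.4% in replicate 1. Hsa-miR-18a-3p, from the growth-associated miR-17-92 cluster, reached 11.1% (9.48% to 13.05%) with 133 reads against 1061.

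Hsa-miR-382-3p, on chromosome 21 (67592924 to 67592944, plus strand), was close to even with its partner, with 69 reads against 73 on bta-miR-382 (48.6%, 40.5% to 56.7%). At the remaining 6 hairpins the human-named arm was a trace. Hsa-miR-374b-3p had 65 reads against 4134 (1.55%), hsa-let-7i-3p 187 against 34918 (0.533%), hsa-miR-148a-5p 35 against 8198 (0.425%) and hsa-miR-29a-5p 83 against 24454 (0.338%). The lowest shares over all libraries belonged to the miR-26 hairpins, which lie within the phosphatase genes CTDSP1 and CTDSP2. There, hsa-miR-26b-3p had 50 reads against 33196 (0.1504%) and hsa-miR-26a-2-3p 49 against 154536 (0.0317%), and the reads of bta-miR-26a can also come from a second miR-26a hairpin. Without HG replicate 2 the share of hsa-miR-29a-5p was 0.0558% (12 reads against 21509), below the 0.167% of hsa-miR-26b-3p.

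Among these traces hsa-let-7i-3p, on chromosome 5 (51209142 to 51209163, minus strand), was steady. It had 27, 26, 35 and 18 reads on forage and 15, 21, 24 and 21 on HG, with 3189 to 5521 reads of bta-let-7i beside it. The 3p arm held 0.468% to 0.577% of the reads of the hairpin in 7 libraries and 0.690% in forage replicate 3, and all 8 intervals overlapped.

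**Figure D3:**
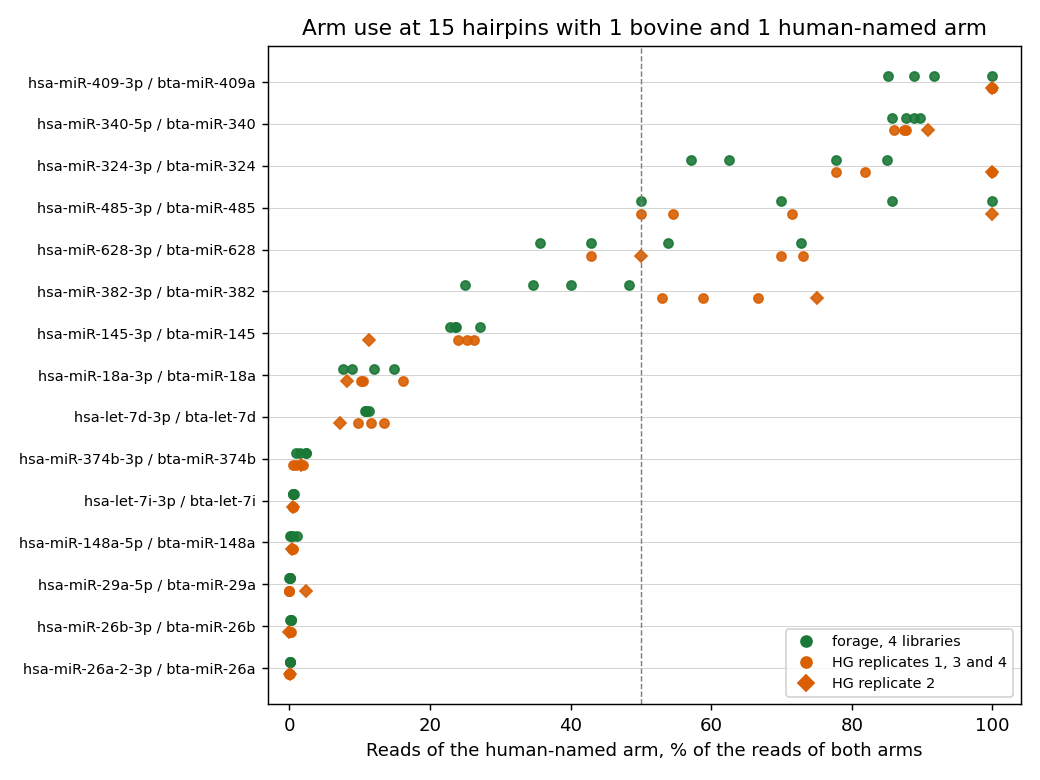
Reads of the human-named arm as a percentage of the reads of both arms at 15 hairpins, with 1 symbol per library and a dashed line at 50%. The order runs from hsa-miR-26a-2-3p at 0.0317% to hsa-miR-409-3p at 95.2% over all libraries, and at hsa-miR-382-3p the forage and HG symbols do not overlap.

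Hsa-miR-29a-5p, on chromosome 4 (95402322 to 95402343, minus strand), stood out by 1 library. Its reads were 6, 2, 0 and 4 on forage and 0, 71, 0 and 0 on HG, so that 71 of 83 reads came from HG replicate 2. All 71 were 1 distinct sequence. In the 3 other cases in which one of the 21 had between 50 and 100 reads in a library, these were 6 or 7 distinct sequences, while hsa-miR-450a-5p, one of the 88, had 53 reads of 3 distinct sequences in the same HG replicate 2. Bta-miR-29a, the abundant arm known for its collagen targets, had 2945 reads in HG replicate 2 and 2199 to 3935 in the others. Without HG replicate 2, hsa-miR-29a-5p did not reach the minimum of 10 reads. The tables list counts from 2 reads upward, so a 0 here stands for at most 1 read.

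The 3 members without a detected bovine entry within 100 nt were hsa-miR-378a-5p, hsa-miR-329-3p and hsa-miR-376c-3p. Hsa-miR-378a-5p lay on chromosome 7 (63067305 to 63067326, plus strand) within PPARGC1B, the coactivator gene of energy metabolism that hosts miR-378a. It had 48, 61, 41 and 40 reads on forage and 22, 17, 52 and 45 on HG. HG replicates 1 and 2 were the lowest, and the diets overlapped. The reads of bta-miR-378 were listed at another locus, on chromosome 4, together with hsa-miR-378a-3p (14931 reads). The gene matched to the chromosome 7 hairpin, MIR378-1, has bta-mir-378 among its synonyms. Bta-miR-378 kept 25.7% of its reads after division, and how many came from the chromosome 7 hairpin was not tested.

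Hsa-miR-329-3p and hsa-miR-376c-3p both belong to the DLK1-DIO3 cluster. Hsa-miR-329-3p had 32, 23, 16 and 18 reads on forage and 14, 15, 25 and 18 on HG, and its position (chromosome 21, 67566557 to 67566578, plus strand) was matched to the gene MIR329A, beside the near-identical MIR329B. Hsa-miR-376c-3p had 7, 6, 14 and 9 reads on forage and 6, 4, 12 and 19 on HG. Neither diet was separate from the other for either of them.

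In total 5 of the 21 members came from this cluster, namely hsa-miR-329-3p, hsa-miR-376c-3p, hsa-miR-382-3p, hsa-miR-485-3p and hsa-miR-409-3p. They lay with 7 of the 88 entries of equal reads on 40.2 kb of chromosome 21 (67563113 to 67603313). The 5 summed to 132 to 178 RPM on forage and 143 to 194 RPM on HG, with overlapping diets.

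The members nearest the minimum of 10 reads were of both kinds. Just inside, hsa-miR-760 had 10 reads in its highest library, hsa-miR-18b-5p and hsa-miR-654-3p 11, and hsa-miR-148a-5p 12. Just outside were hsa-miR-196b-5p with 9 reads and hsa-miR-99b-3p with 8. Of the 57 human entries listed under the minimum, 39 had the reads of a bovine entry and 18 did not, and 27 had no more than 2 reads in any library.

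Whether the members changed with the diet was asked within the fit across all 377 detected entries, with cow and diet in the model (edgeR quasi-likelihood test, Benjamini-Hochberg adjustment). With edgeR, 0 of the 109 human entries passed an adjusted p of 0.05, and over all entries it was 0 of 377, or 0%. DESeq2 also called 0 of 377, with 3 at an unadjusted p under 0.05, of which 1 was a human entry. An unadjusted p under 0.05 was reached by 9 of 377 entries (2.39%) and by 2 of the 109 human entries, 1 in each kind. The smallest adjusted p from edgeR was 0.788. The median log2 fold change (HG against forage) was 0.01 over the 21, 0.03 over the 88 and 0.03 over all 377. Of the 21, 12 had a fold change above 0 and 9 below it.

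The member of the 21 with the smallest p was hsa-miR-194-5p. Its levels were 532, 541, 517 and 473 RPM on forage and 580, 595, 563 and 639 RPM on HG, or 516 ± 30.3 and 594 ± 32.6 (SD, n = 4). All 4 HG libraries lay above all 4 forage libraries, and the level was higher in 4 of 4 cows. Over all entries, 1.33% had HG libraries all above the forage libraries and 6.9% were higher in 4 of 4 cows. The reverse, HG libraries all below the forage libraries, was found for 2.65% of all entries and for 2 of the 109 human entries, both among the 88. For hsa-miR-194-5p the log2 fold change was 0.25 (SE 0.09) with an edgeR unadjusted p of 0.0364 and an adjusted p of 0.788. Without HG replicate 2 it was 0.21, and without each cow in turn it was 0.18 to 0.30. The unadjusted p of hsa-miR-194-5p was 0.177 with DESeq2 on read counts. With edgeR it was 0.0349 to 0.187 without each cow in turn. For bta-miR-194, which holds these reads and more, the fold change was 0.13 (SE 0.08).

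Hsa-miR-382-3p and hsa-miR-374b-3p followed by p. Hsa-miR-382-3p had 14, 9, 4 and 4 reads on forage and 10, 9, 10 and 9 on HG, and its level was higher on HG in 4 of 4 cows, from 16.6 ± 8.56 to 27.2 ± 4.33 RPM. The log2 fold change was 0.82 (SE 0.38), with an edgeR adjusted p of 0.788, and the diets overlapped because of forage replicate 1. Hsa-miR-374b-3p had 16, 8, 9 and 11 reads on forage and 2, 5, 9 and 5 on HG, or 25.1 ± 8.99 and 14.4 ± 6.75 RPM. Its log2 fold change was −0.71 (SE 0.54), it was higher on HG in 1 of 4 cows, and the diets overlapped. Without cow 1 it was −0.33, without cow 3 −1.09 and without HG replicate 2 −0.93. Hsa-miR-374b-3p reached the minimum of 10 reads only on forage, so its detection is tied to a higher level there.

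The miR-382 hairpin was the one at which arm use differed between the diets without overlap. Bta-miR-382, the 5p arm, had 15, 17, 12 and 6 reads on forage and 5, 3, 7 and 8 on HG. The share of the 3p arm was 48.3%, 34.6%, 25% and 40% on forage and 66.7%, 75%, 58.8% and 52.9% on HG. The HG libraries all lay above the forage libraries in these shares of 10 to 29 reads, whose Wilson 95% intervals overlapped between all libraries, with means of 63.4% ± 9.58 and 37.0% ± 9.76. The exact sign-flip permutation test over 4 cows gave the smallest p it can give, which does not reach 0.05, and its adjusted p over 15 hairpins was 0.938. This hairpin was singled out after its values were seen. The share of hsa-miR-26a-2-3p, lower on HG in 4 of 4 cows, gave the same p and adjusted p with this exact test. That member passed the minimum of reads only through forage replicate 1, so its direction is not independent of its selection. The diets overlapped at its hairpin and at the other 13 hairpins.

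Beside hsa-miR-194-5p and hsa-miR-382-3p, hsa-miR-376c-3p was higher on HG in 4 of 4 cows. Hsa-miR-26a-2-3p was lower in 4 of 4, where 8.75% of all entries were lower in 4 of 4. Its reads were 15, 8, 5 and 7 on forage and 5, 5, 4 and 0 on HG, and the diets overlapped. Hsa-miR-26a-2-3p passed the minimum of reads only through forage replicate 1, so its lower level on HG is not independent of its selection.

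Beside hsa-miR-194-5p, the other 9 members with most reads had fold changes between −0.19 and 0.21, and several rested on HG replicate 2. Hsa-miR-103a-3p had a log2 fold change of 0.01 (SE 0.04), and of 0.01 without HG replicate 2. For hsa-miR-7-5p it was 0.21 (SE 0.18) with this library and 0.02 (SE 0.11) without it, and it was 0.38 without cow 1. For hsa-miR-145-3p it was −0.04 (SE 0.08) with the library. The sign turned without it for 5 of these members. The value went from 0.06 (SE 0.16) to −0.10 for hsa-miR-340-5p and from −0.19 (SE 0.28) to 0.08 for hsa-miR-378a-5p. It went from −0.09 (SE 0.13) to 0.01 for hsa-let-7d-3p, from 0.01 (SE 0.24) to −0.18 for hsa-let-7i-3p and to 0.00467 for hsa-miR-145-3p. Hsa-miR-329-3p had 0.10 (SE 0.30) with and 0.06 without the library, and −0.16 without cow 3. Hsa-miR-409-3p had 0.15 (SE 0.22) and 0.18. For hsa-miR-29a-5p the fitted value of 1.66 (SE 2.16) rested on 1 library. The SE was at most 0.32 in the 11 members with 100 reads or more and at least 0.35 in the 10 below.

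**Figure D4:**
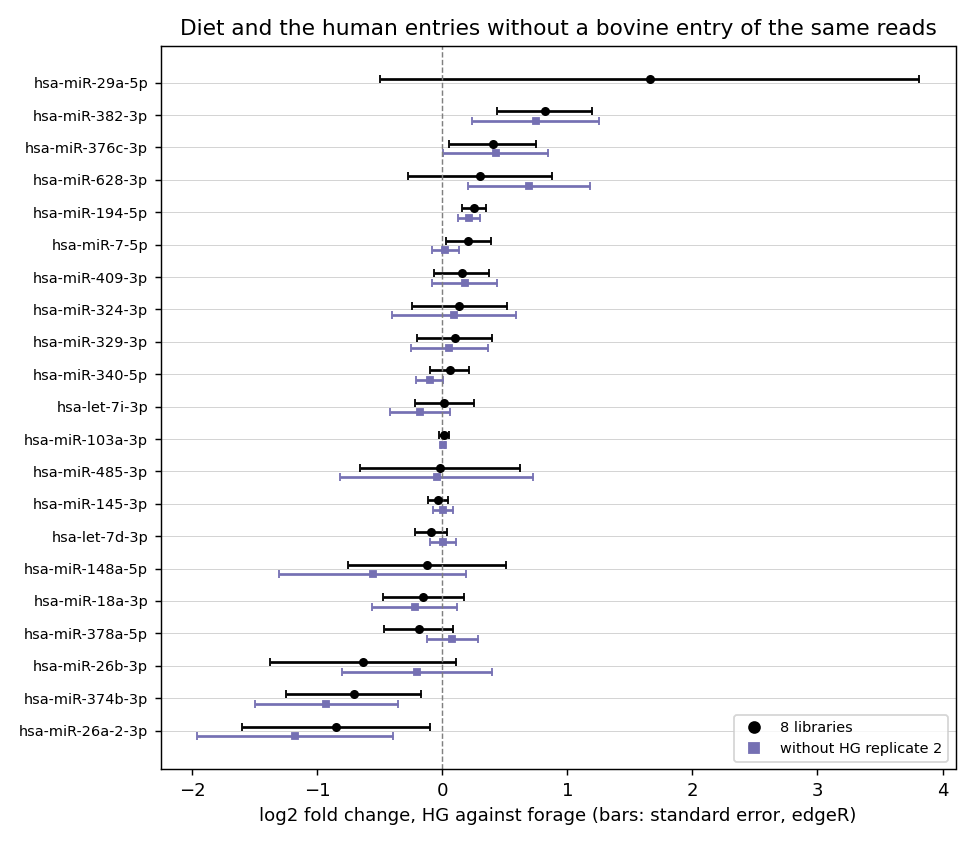
Diet log2 fold change of the 21 members (HG against forage) with all 8 libraries (circles) and without HG replicate 2 (squares). Bars give a standard error derived from the edgeR fold change and F statistic. Members with many reads have short bars, hsa-miR-194-5p lies at 0.25 and 0.21, and hsa-miR-29a-5p has no value without HG replicate 2.

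Among the 88 entries of equal reads, the smallest p belonged to hsa-miR-450a-5p, hsa-miR-708-5p and hsa-miR-29b-3p. Hsa-miR-450a-5p had 18, 6, 5 and 2 reads on forage and 13, 53, 11 and 9 on HG, with a log2 fold change of 1.86 (SE 0.69) and an edgeR unadjusted p of 0.0370. HG replicate 2 held 53 of its 117 reads, and without this library the fold change was 0.82 (SE 0.49). Hsa-miR-708-5p had 30, 30, 26 and 25 reads on forage and 15, 9, 16 and 22 on HG, with a log2 fold change of −0.50 (SE 0.23), and −0.39 without HG replicate 2. Hsa-miR-29b-3p had 318, 357, 282 and 228 reads on forage and 284, 289, 235 and 280 on HG, with 0.28 (SE 0.13), 0.20 without HG replicate 2 and 0.18 without cow 1. Each of these results is that of the bovine entry as well, since the reads are the same. The 10 most abundant of the 88 had fold changes of −0.08 to 0.06.

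The share of miRNA reads held by the 21 members differed between the diets by −0.0135 percentage points (HG minus forage, exact sign-flip permutation test over cows, p = 0.75), and it was higher on HG in 2 of 4 cows. The difference turned to 0.0142 without hsa-miR-103a-3p (exact p = 0.375) and to 0.0152 without both libraries of replicate 2 (exact p = 0.75). With 4 cows this test cannot reach 0.05. HG replicate 2 was the lowest library for 9 of the 21 members and the highest for 3, against 49.3% and 26.8% of all entries.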

How the data were processed

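Small RNA of rumen fluid was sequenced in 4 libraries per diet. Adapters were removed with Skewer by the authors, who then dropped short and low-quality reads and used sRNAbench with Bowtie (up to 2 mismatches) on the cow genome and on miRBase entries of both cattle and human. The submitters' processing notes name bcl2fastq 2.20 and DESeq2. Each deposited table holds read counts per entry, with a read counted in full at every entry it maps to, and an expected count that divides each read among its entries. The deposited RPM values, relative to all reads, were used to recover that total. The deposited score, RPM of miRNA reads, gave the number of miRNA reads. Levels called RPM in the text are relative to miRNA reads. A missing row was taken as 0.

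Members were found by name and reads as the text describes. The members and lists were chosen with earlier results of these data known. Each of the 21 entries without a bovine entry of the same reads was named. Among them, reads per library and fold changes were given for the 10 with most reads, those in 4 or fewer libraries and the 3 with the smallest p, and, among entries of equal reads, for the 3 with the smallest p, while the 10 with most reads of that kind were given by their totals and the range of their fold changes. Diet was tested with edgeR 4.0.16 in R 4.3.3 (TMM, glmQLFit and glmQLFTest, two-sided), with cow and diet in the model and Benjamini-Hochberg adjustment over 377 entries. The p-values measure the spread between these libraries. Each SE of an edgeR fold change was derived as the absolute log2 fold change divided by the square root of the F statistic. Such an SE need not match the p-value exactly. The script was tested on simulated data. DESeq2 1.42.0 was run on read counts and on expected counts rounded to whole numbers. Shares were tested with two-sided exact sign-flip permutations over cows. Python 3.11.15, numpy 2.4.6, pandas 2.3.3, scipy 1.17.1 and matplotlib 3.10.9 were used. Host and neighbouring genes came from the RefSeq annotation of another bovine build, by name only. The deposited table of normalized values was not used.

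Same-numbered libraries were paired as 1 cow, because the study sampled the same 4 cows on both diets and the labels number the libraries alike. The labels do not name the cows. As a check, deviations of same-numbered libraries from their diet mean correlated at 0.0140, −0.0938, 0.0411 and 0.000378 for numbers 1 to 4. Those of other pairs correlated at −0.159 to 0.264. This check did not bear out the pairing, which rests on the design and the numbering alone. Alternatives covered the minimum of reads, the rule of equality, the division of reads, the scaling, the tool, the cow term and leaving out libraries. The share of members that share no reads and the arm shares were added after seeing the data.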

Additional observations from a re-analysis of the deposited data

Results flagged for a closer look

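Of 76 groups of 4 libraries examined, 7 had 1 library far from the other 3 of its diet (gap over range above Dixon's 95% critical value, which chance gives in about 1 of 20 groups), and 4 of the 7 were HG replicate 2. In that library hsa-miR-29a-5p stood at 211 RPM against no listed reads in the other 3 HG libraries, and its share of both arms of the hairpin was 2.35% against 0%. The 3p share at miR-145 was 11.4% there against 23.9% to 26.2%, and human entries made up 30.5% of the summed read counts against 33.7% to 33.9%. The other 3 cases were hsa-miR-329-3p in HG replicate 3 (64.0 RPM), the 21 members together in forage replicate 1 (1.48% of miRNA reads) and the share of hsa-let-7i-3p at its hairpin in forage replicate 3 (0.690%).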

How the results depend on the processing

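Without a minimum of reads, 166 human entries were counted instead of 109. With a minimum of 20 reads, 12 instead of 21 members had no bovine entry of the same reads, since 9 fell below it. Leaving out each library in turn gave 107 to 109 detected entries and 19 to 21 such members. When counts within 2% or 2 reads were taken as equal, hsa-miR-103a-3p left and 20 remained. By overlap of positions 21 were found, with hsa-miR-29c-5p in place of hsa-miR-103a-3p. The difference in the share of reads was 0.0142 percentage points without hsa-miR-103a-3p, and −0.0335 to 0.0152 when each cow was left out. No human entry was called under any of the 12 diet alternatives (smallest adjusted p of edgeR or DESeq2 0.182 to 0.999). Without HG replicate 2, edgeR called 2 of 371 entries, neither of them human. Without the replicate block for cow, edgeR called 0 of the 109 and 0 of the 21 as well. Of 190 recomputed fold changes of the 16 members with a fold change in the text, 171 kept their direction and 19 turned. For hsa-miR-103a-3p the value was −7.74e-05 with RLE size factors, −4.87e-05 with DESeq2, −0.000662 with divided reads and −0.00659 with 1 entry per set of identical reads. Under the last 2 settings it was −0.00156 and −0.00483 for hsa-let-7i-3p. For hsa-miR-29a-5p DESeq2 gave −2.05 on both kinds of count. Leaving out libraries or cows gave −0.0662 to 0.0107 for hsa-miR-145-3p, −0.10 to 0.19 for hsa-miR-340-5p, −0.179 to 0.0119 for hsa-let-7d-3p, −0.471 to 0.0866 for hsa-miR-378a-5p, −0.18 to 0.14 for hsa-let-7i-3p and −0.16 to 0.28 for hsa-miR-329-3p. The cause was not tested. Depth limits the 10 members under 100 reads.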
